A study of Mus musculus with 50 samples.

Results

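The genes described here are 10 regulators that act next to heterotrimeric G proteins, Rasd1, Rasd2, Rgs1, Rgs2, Rgs3, Rgs4, Rgs5, Rgs10, Rgs14 and Rgs16, out of 55401 gene rows in the deposited table with gene symbols. They were taken by symbol, and all 10 were present in all 3 tables through their gene identifiers. The set was proposed after differences between genotypes in these libraries were known, so the values in those comparisons are a description of the chosen genes and carry no test of their own. The libraries came from male mice that all carried the hM3DGq transgene, a designer receptor that clozapine N-oxide (CNO) switches on, and that all received CNO at 1 mg/kg. TG mice also carried a Cre recombinase under Gfral, the receptor gene for the hormone GDF15 in hindbrain neurons, and WT mice were Cre-negative. The groups were quadriceps of TG (n = 10) and WT (n = 10) mice that had been clamped, perigonadal white adipose tissue (pgWAT) of TG (n = 9) and WT (n = 9) mice taken 1 h after CNO, and pgWAT of TG (n = 6) and WT (n = 6) mice taken 6 h after CNO. Gfral is known mainly from those neurons and not from muscle or fat, and every group used here received CNO. Age was not stated for the mice. The stated question was how activating these neurons affects gene expression in a tissue that had taken up less glucose, the quadriceps, and in one that had taken up more, the pgWAT.

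Heterotrimeric G proteins carry signals from receptors such as adrenergic receptors into the cell. The alpha subunit is active while it holds GTP, and RGS proteins (regulators of G protein signalling) bind the active alpha subunit and speed up GTP hydrolysis, which ends the signal. Rasd1, also called Dexras1 or AGS1, is a small Ras-like GTPase first found as a transcript induced by dexamethasone. It modulates signalling through inhibitory G proteins and adenylyl cyclase. Rasd2, also called Rhes, is its closest relative and is best known from the striatum. In fat cells, stimulatory and inhibitory G proteins set the rate of cAMP formation and, through it, of lipolysis.

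The depth of a library, as its total over genes, lay between 959980 and 2613672 for quadriceps, between 976610 and 4852560 for fat at 1 h and between 9150496 and 12883462 for fat at 6 h. Every level below is given in CPM, meaning counts divided by the TMM-adjusted library total and brought to the same scale. A count of 0 allows a level of up to 3 counts, which on this scale was 1.01 to 3.26 CPM in quadriceps, 0.581 to 3.28 CPM at 1 h and 0.241 to 0.352 CPM at 6 h. These limits cover counting error only. The tissue labels fitted the marker genes: summed muscle fibre markers stood at 31401 to 55376 CPM in the 20 quadriceps libraries, and summed adipocyte markers at 6980 to 12335 CPM in pgWAT at 1 h and 14678 to 28150 CPM in pgWAT at 6 h. Some libraries stood apart by markers of other organs. Summed liver markers reached 8884 CPM in TG replicate 3 and 2136 CPM in WT replicate 7 of pgWAT at 1 h, 1376 CPM in TG replicate 2 of pgWAT at 6 h and 235.6 CPM in WT replicate 2 of quadriceps. Summed markers of epididymis and testis, which lie against this fat depot, reached 2041 CPM in a WT library of pgWAT at 1 h. Results that rest on such libraries are given with and without them. Kit and sequencing batch coincide with time between both pgWAT sets, so levels at 1 h and 6 h are set side by side without a test. The labels do not say which libraries came from separate mice, so p-values measure only the spread between these libraries.

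Promoter sequence is shown for the 4 members with enough counts to be tested between muscle and fat, and these differed in distribution: Rasd2 and Rgs5 were higher in WT muscle, Rgs2 was lower, and Rgs4 did not pass the threshold. Each window runs from 250 bases before to 50 bases after the gene start, from RefSeq on GRCm38.p6, 5′ to 3′ on the gene's strand. Capitals mark TGACG (the core of the cAMP response element), CCAAT and TATAAA on either strand, so a match on the opposite strand reads as its reverse complement. The windows lie at chr8:75213694-75213993 (plus strand) for Rasd2, chr1:144004100-144004399 (minus strand) for Rgs2, chr1:169747593-169747892 (minus strand) for Rgs4 and chr1:169655251-169655550 (plus strand) for Rgs5.
Rasd2: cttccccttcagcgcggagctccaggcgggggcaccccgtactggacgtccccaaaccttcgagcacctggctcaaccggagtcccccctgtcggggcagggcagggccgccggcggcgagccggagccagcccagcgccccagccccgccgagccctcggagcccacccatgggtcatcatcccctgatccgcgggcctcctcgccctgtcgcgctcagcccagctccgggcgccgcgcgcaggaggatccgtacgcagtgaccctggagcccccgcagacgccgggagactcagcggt
Rgs2: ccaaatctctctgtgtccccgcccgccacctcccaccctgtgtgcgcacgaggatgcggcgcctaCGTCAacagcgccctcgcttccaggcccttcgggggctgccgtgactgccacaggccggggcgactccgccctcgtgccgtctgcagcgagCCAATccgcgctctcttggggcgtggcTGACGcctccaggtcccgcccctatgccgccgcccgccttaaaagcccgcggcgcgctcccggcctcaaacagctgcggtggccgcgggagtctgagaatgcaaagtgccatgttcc
Rgs4: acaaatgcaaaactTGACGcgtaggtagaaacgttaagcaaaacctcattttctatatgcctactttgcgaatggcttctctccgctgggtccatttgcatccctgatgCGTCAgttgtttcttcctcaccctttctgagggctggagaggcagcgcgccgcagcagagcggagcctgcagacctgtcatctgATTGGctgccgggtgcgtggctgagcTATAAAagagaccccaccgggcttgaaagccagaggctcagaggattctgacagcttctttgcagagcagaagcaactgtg
Rgs5: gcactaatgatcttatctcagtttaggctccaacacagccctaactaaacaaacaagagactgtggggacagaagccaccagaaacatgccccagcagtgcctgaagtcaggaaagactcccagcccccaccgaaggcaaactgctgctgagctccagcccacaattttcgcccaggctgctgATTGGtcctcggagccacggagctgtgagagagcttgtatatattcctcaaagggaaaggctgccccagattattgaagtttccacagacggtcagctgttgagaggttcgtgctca
A window was found for 7 of the 10 members. The letters searched on both strands were TGACG, the full cAMP response element TGACGTCA that contains it, the core AGAACA of the glucocorticoid response element, the TATA box letters TATAAA, and the letters CCAAT. Among 32851 promoter windows of the same length, the letters TGACG were present in 20.8%, TGACGTCA in 1.79%, AGAACA in 18.97%, TATAAA in 13.6% and CCAAT in 37.4%. The Rgs2 window held TGACG at 2 places, with its first base at −67 on the gene's strand and at −185 on the opposite strand, counted from the gene start, and CCAAT at −94. The Rgs4 window also held it at 2 places, at −236 on the gene's strand and at −141 on the opposite strand, with a TATAAA at −31 on the gene's strand and CCAAT at −57 on the opposite strand. The Rgs5 window held CCAAT at −67 on the opposite strand and no TGACG. The Rasd2 window, with a GC content of 74.7%, held none of the motifs searched. Of the windows not printed, the 2 for Rgs3 each held AGAACA, at −39 on the opposite strand and at −244 on the gene's strand. They also held TATAAA, at −100 and −177 on the gene's strand. The Rgs16 window held CCAAT at −68 on the opposite strand. A match in letters is not evidence of binding.

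Rasd1 was far lower in TG than in WT fat at 6 h and differed little at 1 h. In pgWAT at 6 h the lowest, median and highest Rasd1 levels were 1.68, 5.22 and 9.37 CPM in TG libraries, against 102 (lowest), 133 (median) and 161 CPM (highest) in WT libraries. Every TG library lay below every WT library, with 18 to 109 counts per TG library and 1183 to 1715 per WT library. The means were 5.30 ± 2.82 CPM in TG and 131 ± 25.2 CPM in WT (SD, n = 6 each), so the TG mean was 0.0403 of the WT mean. The fitted log2 difference of TG over WT was −4.63 ± 0.31 (SE), the lowest of 14359 genes tested, and 0 genes had a larger difference in size. Rasd1 lies on the minus strand at chr11:59963181-59964944 (GRCm38).

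**Figure D1:**
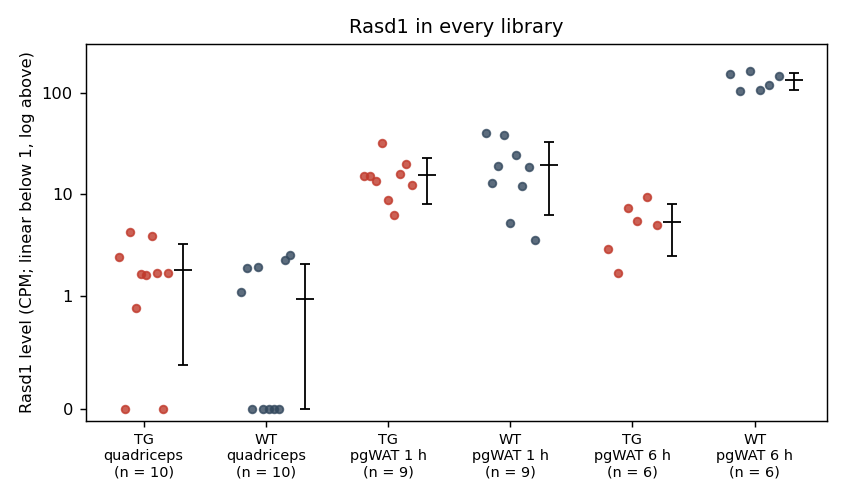
Rasd1 level in CPM (linear below 1, logarithmic above) in every library of the 6 groups, with TG left of WT in each set and the mean ± SD beside the points (lower bars stop at 0). At 6 h the TG points sit between 1.68 and 9.37 CPM and the WT points between 102 and 161 CPM, while the groups overlap in quadriceps and at 1 h.

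At 1 h the Rasd1 levels in pgWAT were 6.21 (lowest), 15.2 (median) and 31.6 CPM (highest) in TG libraries, against 3.57, 18.6 and 39.7 CPM in WT libraries. The groups overlapped over most of their range, with means of 15.4 ± 7.28 CPM in TG and 19.3 ± 13.03 CPM in WT (SD, n = 9 each) and a log2 difference of −0.29 ± 0.40 (SE). Without the 8 libraries high in markers of other organs the log2 difference was −0.85, and it was not past the threshold there either. In quadriceps Rasd1 was near the limit of detection, with 22 counts over the 10 TG libraries and 12 over the 10 WT libraries, at most 4.23 CPM in TG and 2.51 CPM in WT. It was at 0 in 2 TG and 5 WT libraries and did not reach the count needed for a test.

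Ordered by mean level, Rasd1 stood highest in WT fat at 6 h (131 CPM), then in WT fat at 1 h (19.3 CPM), TG fat at 1 h (15.4 CPM), TG fat at 6 h (5.30 CPM), TG quadriceps (1.81 CPM) and WT quadriceps (0.971 CPM). WT fat at 6 h shared no part of its range with any other group. Each other neighbouring pair in this order overlapped. Compared across the pgWAT sets, the WT level was higher at 6 h than at 1 h and the TG level lower, but time, kit and batch cannot be told apart. These are bulk tissue libraries, in which fewer cells of a type and less RNA per cell cannot be told apart either. Summed muscle fibre markers were also separated by genotype at 6 h, at 61.6 to 120 CPM in TG and 22.5 to 50.5 CPM in WT fat, with 1 of the 2 tested of 6 markers higher (Acta1, skeletal muscle actin, log2 1.26 ± 0.25 SE, edgeR adjusted p = 0.00602) and none of the 6 at 0. Rasd1 itself stayed under 4.3 CPM in every muscle library, and the part of the muscle transcripts in the Rasd1 difference was not tested. Single markers of other cell types were lower in TG, as Rasd1 was: Cd22 of B cells (1 of 2 tested of 5 markers), Tek of endothelium (1 of 6), Wt1 of mesothelium (1 of 7), Mbp of Schwann cells (1 of 3 tested of 5) and 3 of 10 mural markers named with Rgs5. Summed B cell markers were 1.81 to 5.55 CPM in TG and 3.74 to 29.2 CPM in WT, and summed Schwann cell markers 35.9 to 45.6 CPM in TG and 43.6 to 58.9 CPM in WT. Summed endothelial markers were 543 to 799 CPM in TG and 546 to 663 CPM in WT, and summed mesothelial markers 71.3 to 298 CPM in TG and 119 to 241 CPM in WT. Of the 6 adipocyte markers 1 was higher (Cidec). None of these markers was at 0, all these sums overlapped between genotypes, and their part in the Rasd1 difference was not tested.

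Rasd2 was close between genotypes in quadriceps. It had 21.9, 31.4 and 57.2 CPM (lowest, median, highest) in TG libraries, against 22.6, 29.5 and 44.6 CPM in WT libraries. Means were 31.8 ± 10.0 CPM in TG and 29.9 ± 7.13 CPM in WT (SD, n = 10 each), with a log2 difference of 0.10 ± 0.15 (SE). In fat it was scarce: 15 counts in all TG and 24 in all WT libraries at 1 h, too few for a test. At 6 h it had 1.17, 1.69 and 2.25 CPM in TG libraries and 0.543, 0.849 and 2.91 CPM in WT libraries. The log2 difference there was 0.54 ± 0.39 (SE). It became 1.05 and passed the threshold once WT replicate 3, the library at 2.91 CPM, was left out. The remaining WT libraries stood at 1.16 CPM or less. Rasd2 passed the filter on low counts mainly through its TG level, so nothing is read from that call.

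Counted over the whole set, 2 of the 10 members were past the threshold (edgeR quasi-likelihood test, Benjamini-Hochberg adjusted p under 0.05 over all genes) in pgWAT at 6 h, Rasd1 lower and Rgs2 higher in TG, where 14.4% of all 14359 tested genes were (7.54% lower, 6.88% higher). One gene, Rasd1, had groups that did not overlap, and of all genes 3.73% had every TG library below every WT library. In pgWAT at 1 h, 0 of the 8 members tested passed, where 0.0722% of 11087 genes did, and in quadriceps 0 of the 4 tested, where 2.04% of 8070 genes did. At an unadjusted p under 0.05 these counts were 0 at 1 h and 1 in quadriceps (Rgs4), and DESeq2 called 0 in both. The median log2 differences of the members tested were −0.14 at 6 h, −0.20 at 1 h and −0.04 in quadriceps, against 0.00, 0.01 and −0.00 over all genes tested. Because members were chosen on these comparisons, and only some passed the filter on low counts, nothing is read from these shares.

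**Figure D2:**
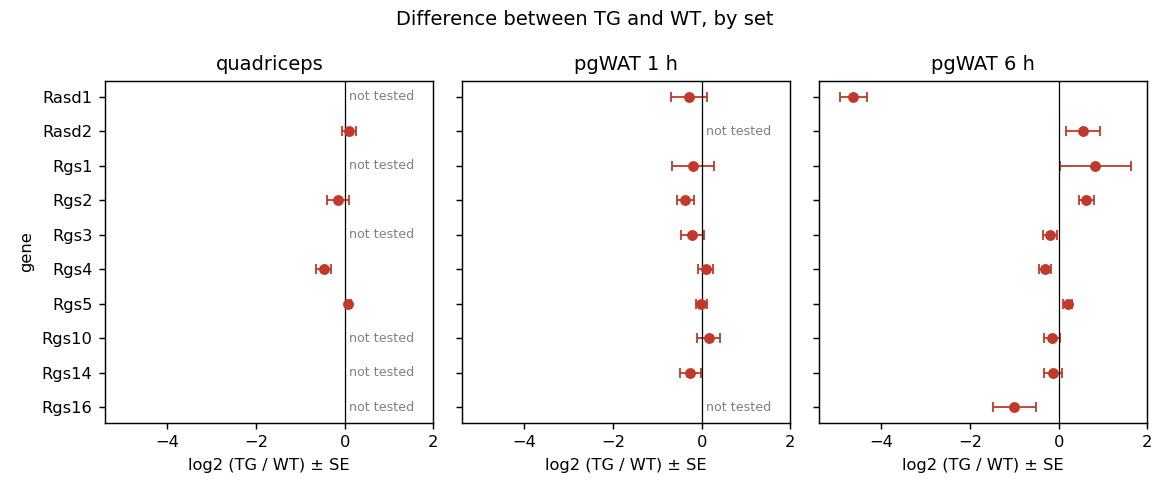
Log2 difference of TG over WT (points) with its standard error (bars) for the 10 genes in quadriceps, pgWAT at 1 h and pgWAT at 6 h, with untested genes named as such. Rasd1 at 6 h lies at −4.63, and every other point lies between −0.996 and 0.83.

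Among the small RGS proteins that consist of little more than the RGS domain, Rgs2, Rgs4 and Rgs5 were measured in all sets. Rgs2, which prefers the alpha subunit of Gq and is known as a transcript induced by cAMP, had 42.2 (lowest), 60.4 (median) and 79.5 CPM (highest) in TG fat at 6 h, against 29.6, 39.1 and 48.4 CPM in WT fat. All 6 TG libraries lay above the WT median, although the ranges overlapped between 42.2 and 48.4 CPM. The means were 59.9 ± 15.0 CPM in TG and 38.9 ± 7.28 CPM in WT (SD, n = 6 each), a log2 difference of 0.62 ± 0.17 (SE). That call was lost without the filter on low counts, with the replicate number as a block, and without TG replicate 1 or WT replicate 1, 4 or 6, while the log2 difference stayed between 0.53 and 0.71 over all alternatives.

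At 1 h the Rgs2 difference had the opposite sign, and whether the times differ was not tested. Rgs2 had 49.1, 72.8 and 119 CPM in TG fat, against 62.5, 101 and 146 CPM in WT fat, with overlapping groups and a log2 difference of −0.37 ± 0.19 (SE) that was not past the threshold. In quadriceps Rgs2 had 16.1, 23.8 and 34.3 CPM in TG libraries, against 12.3, 22.8 and 66.8 CPM in WT libraries. The log2 difference there was −0.16 ± 0.25 (SE), and 0.07 without WT replicate 2, the library at 66.8 CPM, in which liver markers summed to 235.6 CPM.

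Rgs4, which acts on Gi and Gq, was a little lower on average in TG than in WT quadriceps. Its levels were 8.49, 13.3 and 26.9 CPM in TG libraries, against 11.7, 20.4 and 28.8 CPM in WT libraries. The means were 15.2 ± 5.08 CPM in TG and 21.1 ± 4.58 CPM in WT (SD, n = 10 each), with a log2 difference of −0.47 ± 0.17 (SE) that was past the threshold only without TG replicate 4. In fat at 6 h its means were 21.4 ± 5.08 CPM in TG and 26.6 ± 2.36 CPM in WT (SD, n = 6 each), with 1 of 6 TG libraries above the WT median and a log2 difference of −0.31 ± 0.13 (SE). Without TG replicate 6 the log2 difference was −0.41 and past the threshold. At 1 h they were 36.7 ± 11.6 CPM in TG and 34.2 ± 6.52 CPM in WT (SD, n = 9 each), and the log2 difference was 0.10 ± 0.17 (SE).

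Rgs5, a widely used marker of pericytes and other mural cells of vessels, was close between genotypes. In quadriceps it had 512, 578 and 588 CPM in TG libraries, against 464, 532 and 668 CPM in WT libraries, with a log2 difference of 0.08 ± 0.06 (SE). In fat at 1 h the means were 641 ± 121 CPM in TG and 642 ± 101 CPM in WT (SD, n = 9 each), a log2 difference of −0.01 ± 0.12 (SE). At 6 h Rgs5 had 273, 319 and 400 CPM in TG fat, against 242, 272 and 349 CPM in WT fat, with a log2 difference of 0.20 ± 0.10 (SE). All 6 TG libraries were above the WT median and the groups overlapped. At that time 3 of 10 mural markers were lower in TG: Kcnj8, a potassium channel subunit (log2 −0.93 ± 0.16 SE, adjusted p = 7.44e-04), Mcam (−0.45 ± 0.08, adjusted p = 7.95e-04) and Notch3 (−0.33 ± 0.10, adjusted p = 0.0287), by edgeR. The summed mural markers were 812 to 1110 CPM in TG and 933 to 1097 CPM in WT, with none at 0, and their part in the Rgs5 values was not tested.

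Rgs1, best known from activated lymphocytes, was high in single libraries. In fat at 6 h it had 0.966, 2.18 and 18.98 CPM in TG libraries, against 0.607, 1.91 and 7.05 CPM in WT libraries. The log2 difference was 0.83 ± 0.80 (SE), and −0.47 without TG replicate 1, the library at 18.98 CPM. In that library the 8 markers of T and NK cells summed to 46.1 CPM and the 7 macrophage markers to 2038 CPM, against 9.71 to 18.9 CPM and 1086 to 1274 CPM in the other TG libraries and 14.3 to 23.5 CPM and 1033 to 1498 CPM in WT libraries. None of these markers was at 0 in that set. At 1 h Rgs1 had 3.21, 8.74 and 10.6 CPM in TG fat, against 1.55, 4.55 and 39.0 CPM in WT fat, a log2 difference of −0.19 ± 0.48 (SE). The library at 39.0 CPM, WT replicate 6, also had the highest summed T and NK cell markers of its set, 93.02 CPM. Without it the log2 difference was 0.51. In quadriceps Rgs1 had 6 counts in all TG and 3 in all WT libraries.

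Rgs16, which acts on Gi and Gq alpha subunits and is well known from liver, was scarce outside a few libraries. At 1 h it had 0.0, 1.38 and 36.1 CPM in TG fat, against 0.777, 2.60 and 5.29 CPM in WT fat, and it did not pass the filter on low counts. Both highest libraries, TG replicate 3 and WT replicate 7, also had the highest summed liver markers of their group. At 6 h Rgs16 had 0.235, 0.542 and 2.33 CPM in TG fat, against 0.822, 1.48 and 3.30 CPM in WT fat. The log2 difference was −0.996 ± 0.488 (SE), not past the threshold. Without TG replicate 2, the library at 2.33 CPM with liver markers at 1376 CPM (47.5 to 76.6 CPM in the other TG and 42.2 to 80.8 CPM in the WT libraries), the log2 difference was −1.61 and past the threshold. Without both 6 h libraries in doubt, TG replicates 1 and 2, it was −1.44 and not past the threshold. Rgs16 passed the filter on low counts mainly through its WT level, so nothing is read from its call without TG replicate 2. No liver marker was at 0 in either pgWAT set, and the part of liver RNA in these values was not otherwise tested. In quadriceps Rgs16 had 3 counts in all TG and 2 in all WT libraries.

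**Figure D3:**
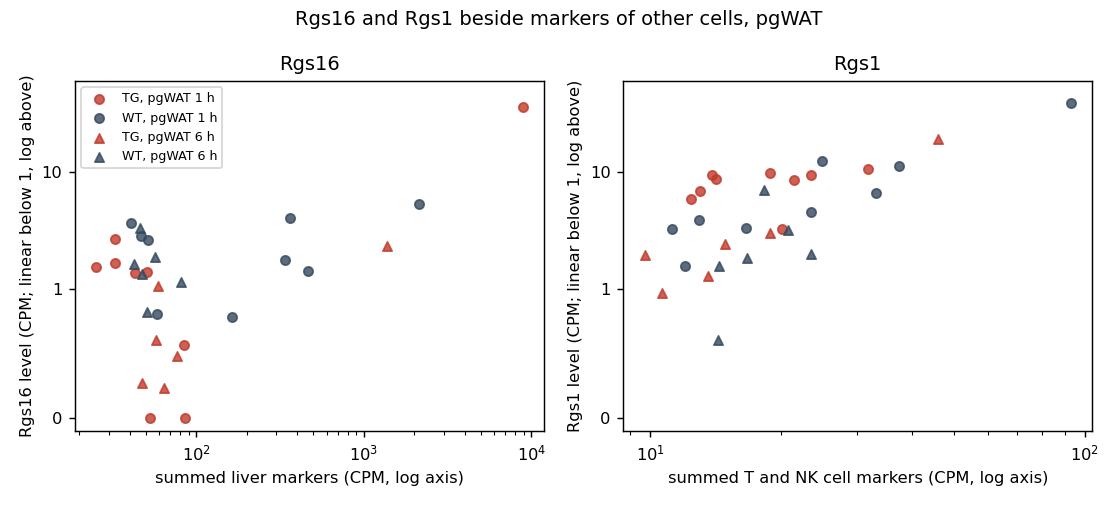
Left, Rgs16 level in CPM against the sum of 7 liver markers, and right, Rgs1 level against the sum of 8 T and NK cell markers (CPM, levels linear below 1 and logarithmic above, sums on a log axis), with 1 point per pgWAT library. The highest Rgs16 point, 36.1 CPM, lies at the highest liver sum, 8884 CPM, and the highest Rgs1 points, 39.0 and 18.98 CPM, lie at the highest T and NK cell sums, 93.02 and 46.1 CPM.

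Rgs3, a larger RGS protein with several isoforms, averaged 10.2 ± 2.37 CPM in TG and 11.6 ± 1.57 CPM in WT fat at 6 h (SD, n = 6 each), a log2 difference of −0.19 ± 0.15 (SE). At 1 h its log2 difference was −0.21 ± 0.26 (SE). Rgs10, a short RGS protein known from microglia and macrophages, averaged 14.1 ± 5.65 CPM in TG and 15.6 ± 1.28 CPM in WT fat at 6 h, a log2 difference of −0.15 ± 0.19 (SE). It was highest, at 25.1 CPM, in TG replicate 1, the library with the highest macrophage markers, and the log2 difference became −0.39 and passed the threshold without it. Without TG replicates 1 and 2 together it was −0.40 and not past the threshold. Rgs10 shares bases on the same strand with the annotated transcript Gm15503, which had 612 counts over the 6 h set against 1992 for Rgs10, so reads between them may have been split. Rgs14, which joins an RGS domain to Ras-binding domains and a motif that holds inactive Gi, averaged 5.32 ± 1.47 CPM in TG and 5.83 ± 1.62 CPM in WT fat at 6 h, a log2 difference of −0.13 ± 0.21 (SE). At 1 h the log2 differences of Rgs10 and Rgs14 were 0.16 ± 0.26 and −0.25 ± 0.24 (SE). In quadriceps these 3 genes had 17, 20 and 13 counts over the TG libraries and 19, 26 and 16 over the WT libraries, in the order Rgs3, Rgs10 and Rgs14, and were not tested.

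Levels in muscle and fat were compared between WT quadriceps (n = 10) and WT pgWAT at 1 h (n = 9), a contrast that played no part in choosing the genes. Both sets were made with the same library kit, while the extraction kit and the clamp differed along with the tissue. CPM values in this comparison are scaled over these 19 libraries together. Rasd2 had the largest difference of the members tested, with 29.2, 37.4 and 56.4 CPM (lowest, median, highest) in WT quadriceps, against 0.0, 0.623 and 2.50 CPM in WT fat. Every quadriceps library lay above every fat library, and the log2 difference was 5.19 ± 0.32 (SE). Rasd2 passed the filter on low counts through muscle alone, having 24 counts over the 9 WT fat libraries with 4 of them at 0, so its difference is given without a p-value. Rgs5 was also higher in muscle, at 686 ± 82.7 CPM in WT quadriceps and 496 ± 77.9 CPM in WT fat (SD, n = 10 and 9), with all quadriceps libraries above all fat libraries. The log2 difference was 0.47 ± 0.10 (SE, edgeR adjusted p = 6.28e-05). Summed mural markers ran the other way within each set's own scaling, at 475 to 618 CPM in WT quadriceps and 707 to 1096 CPM in WT pgWAT at 1 h.

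Rgs2 was lower in muscle, at 15.7, 28.7 and 85.2 CPM in WT quadriceps against 48.6, 77.1 and 112 CPM in WT fat, and the groups overlapped at the upper end of quadriceps, where WT replicate 2 was highest. Its log2 difference was −1.19 ± 0.24 (SE, edgeR adjusted p = 1.36e-04). Rgs4 averaged 26.8 ± 5.82 CPM in WT quadriceps and 26.5 ± 5.23 CPM in WT fat (SD, n = 10 and 9), a log2 difference of 0.01 ± 0.14 (SE, edgeR adjusted p = 0.939). In the TG libraries of the same sets Rgs4 was lower in muscle (log2 −0.63, adjusted p = 0.00459), and whether this contrast differs between genotypes was not tested. Of the 4 members that passed the filter, Rasd2, Rgs2 and Rgs5 were past the threshold, beside 80.8% of the 10319 genes tested (40.2% higher and 40.6% lower in muscle). As the filter itself admitted Rasd2 for its muscle level, nothing is read from that count. Not overlapping were 24.9% of all genes with muscle above fat and 23.8% with muscle below.

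The other 6 members had too few counts over these libraries to pass the filter. Rgs10 passed it, through its fat level, once WT pgWAT replicate 2 was left out, with a log2 difference of −2.07. Nothing is read from its call. Rasd1 had 12 counts over the 10 WT quadriceps libraries, against 336 over the 9 WT fat libraries, Rgs1 had 3 against 157, and Rgs16 had 2 against 45. Rgs3, Rgs10 and Rgs14 had 19, 26 and 16 counts in quadriceps, against 133, 235 and 172 in fat. In a fit without the filter, over 27065 genes, all 6 were lower in muscle. The log2 differences lay between −4.27 (Rgs1) and −1.37 (Rgs3), with −3.47 ± 0.64 (SE) for Rasd1. With so few counts in muscle, they are given without a p-value. The filtered and unfiltered fits are not the same, and the share of the 27065 genes called is not given here. Nothing is therefore read from how many members were lower or higher in muscle.

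**Figure D4:**
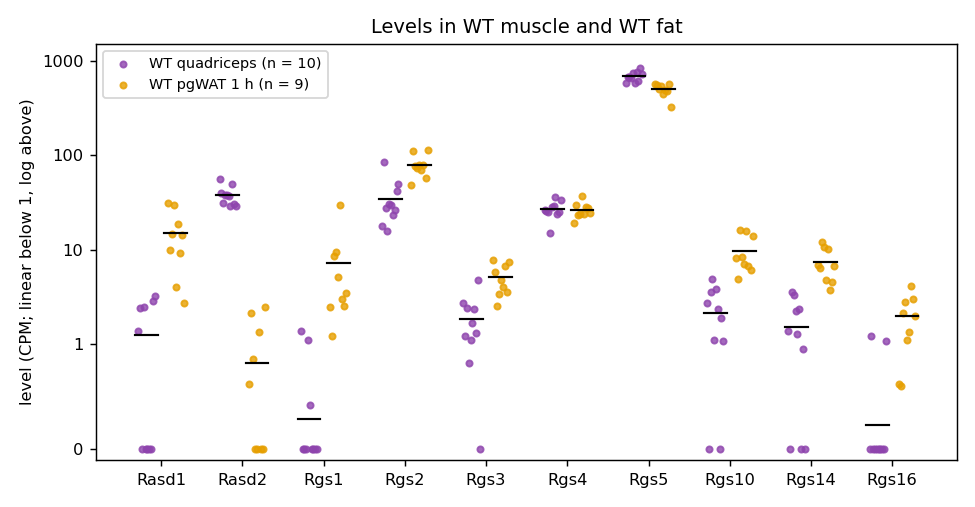
Level of the 10 genes in CPM (linear below 1, logarithmic above) in WT quadriceps (purple, n = 10) and WT pgWAT at 1 h (orange, n = 9), with 1 point per library and a bar at the mean. Rasd2 is the gene with quadriceps above fat by the widest margin (medians 37.4 and 0.623 CPM), Rgs4 has nearly equal means (26.8 and 26.5 CPM), and Rasd1 averages 1.24 CPM in quadriceps and 14.9 CPM in fat.

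The wider G protein machinery was followed in 6 lists of 92 genes in all, none of them members. At 6 h, 64 were tested in fat and 10 changed, 2 higher and 8 lower in TG, beside 6.88% higher and 7.54% lower over all genes. At 1 h 0 of 53 tested and in quadriceps 0 of 31 tested passed in edgeR, with 1 and 6 at an unadjusted p under 0.05, and DESeq2 called 0 in both. None of the 13 other RGS genes changed at 6 h (0 of 5 tested, 1 at an unadjusted p under 0.05, DESeq2 0), with a median log2 difference of 0.13. Of the 20 genes related by an RGS-like domain or by action on G alpha, 2 of 19 tested fell: Axin2, a scaffold and target gene of Wnt signalling with an RGS homology domain, to 4.61 ± 1.07 CPM in TG against 11.7 ± 2.19 CPM in WT (log2 −1.34 ± 0.17 SE, edgeR adjusted p = 3.81e-05), and Grk5, a receptor kinase, to 23.6 ± 2.65 CPM against 30.8 ± 1.21 CPM in WT (log2 −0.38 ± 0.08 SE, adjusted p = 0.00376). Both had every TG library below every WT library, as had 3.73% of all genes tested.

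Among the proteins that the RGS family acts on, 0 of 12 tested of 16 G alpha genes changed at 6 h (1 at an unadjusted p under 0.05, DESeq2 0), with log2 differences from −0.20 to 0.16. Of 17 G beta and gamma genes, 12 were tested, and Gng11 fell (47.6 ± 10.0 CPM in TG, 72.1 ± 8.55 CPM in WT, log2 −0.60 ± 0.13 SE, edgeR adjusted p = 0.00381). Gng2 rose (27.03 ± 5.84 CPM in TG, 18.7 ± 3.52 CPM in WT, log2 0.53 ± 0.15 SE, adjusted p = 0.0244), a call lost in 5 of 17 alternatives, with the replicate number as a block, without TG replicate 5 or 6, without WT replicate 1, and without the 2 libraries in doubt, where adjusted p reached 0.0686. Adenylyl cyclases make cAMP, and of 10 genes 6 were tested. Adcy5 rose (114 ± 9.93 CPM in TG, 91.04 ± 9.90 CPM in WT, log2 0.33 ± 0.08 SE, adjusted p = 0.00807) and Adcy4 fell (19.6 ± 3.20 CPM in TG, 29.4 ± 4.36 CPM in WT, log2 −0.58 ± 0.12 SE, adjusted p = 0.00245). Adcy6 also fell (log2 −0.26 ± 0.08 SE, adjusted p = 0.0247), a call lost in 5 of 17 alternatives, without TG replicate 4 or 5, WT replicate 3 or 6, or the 2 libraries in doubt, with adjusted p up to 0.0756.

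In the list of small GTPases and partners near Rasd1, 10 of 16 genes were tested at 6 h, and 0 rose and 3 fell. Rasl11b, a Ras-like protein, fell to 12.7 ± 3.46 CPM in TG against 35.7 ± 5.91 CPM in WT (log2 −1.48 ± 0.16 SE, edgeR adjusted p = 8.54e-06). Rrad, a GTPase that restrains calcium channels, fell to 0.797 ± 0.476 CPM in TG against 3.74 ± 1.25 CPM in WT (log2 −2.26 ± 0.37 SE). Rrad passed the filter on low counts through its WT level, so no p-value is given and nothing is read from its call. Rasl12 fell to 16.7 ± 3.73 CPM in TG against 36.3 ± 9.08 CPM in WT (log2 −1.11 ± 0.17 SE, adjusted p = 5.13e-04). All 3 had every TG library below every WT library, and Rasl11b and Rasl12 passed in all 17 alternatives. Over all genes tested, 7.54% were lower and 3.73% had every TG library below every WT library. Nos1ap, the adaptor that links Rasd1 to neuronal nitric oxide synthase, averaged 10.7 ± 2.10 CPM in TG and 11.6 ± 2.73 CPM in WT fat at 6 h (SD, n = 6 each; log2 −0.12 ± 0.17 SE, adjusted p = 0.709).

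Between WT muscle and WT fat, 45 of 52 genes tested in these lists passed the edgeR threshold. Of these, 10 were higher and 35 lower in muscle, beside 80.8% of all genes (40.2% higher and 40.6% lower). Genes scarce in 1 tissue passed the filter on low counts through the other. They are given without a p-value, and nothing is read from their direction. Among them were Adcy2 and Nos1 (0.281 and 3.06 CPM in WT fat), and Adcy3, Adcy5, Adcy7, Nos1ap and Rasl12 (2.02 to 4.93 CPM in WT quadriceps). The 4 other RGS genes tested also passed through fat, with means of 0.732 to 3.88 CPM in WT quadriceps and 10.7 to 15.1 CPM in WT fat. Their log2 differences were −3.69 ± 0.34 (SE) for Rgs7, −2.33 ± 0.23 for Rgs18, −2.42 ± 0.26 for Rgs19 and −1.84 ± 0.24 for Rgs12. Among G alpha genes, Gnas, which encodes the stimulatory subunit, was higher (log2 1.23 ± 0.13 SE, adjusted p = 9.36e-10) and Gna13 too (0.37 ± 0.09), while Gnai1, Gnai2 and Gnai3, which encode inhibitory subunits, and Gnaq were lower, Gnai1 by the most (log2 −4.72 ± 0.20 SE, adjusted p = 1.61e-16, 11.7 ± 4.05 CPM in WT quadriceps and 320 ± 80.3 CPM in WT fat). Gnai2, Gnai3 and Gnaq had log2 differences of −1.37, −1.07 and −1.51, all past the threshold. Gnao1, of the same inhibitory class, did not pass (log2 −0.01, adjusted p = 0.948). Of the adenylyl cyclases named here, only Adcy9 and Adcy6 were not scarce in 1 tissue, so no split by tissue is read from the others. Adcy2 (log2 6.92 ± 0.29 SE) and Adcy9 (2.30 ± 0.11) were higher in muscle. Adcy5 (−3.22 ± 0.21), Adcy7 (−2.50 ± 0.24), Adcy3 (−1.94 ± 0.24) and Adcy6 (−1.08 ± 0.23) were lower. Gng5 was higher (log2 2.35 ± 0.20 SE) and Gnb4, Gng2, Gng11 and Gnb1 were the lower ones with the smallest p, with log2 differences from −2.30 to −1.40. Of the RGS-related list, Snx13 (1.51 ± 0.10), Ric8b (1.47 ± 0.10), Grk2 (0.71 ± 0.11) and Axin1 (0.63 ± 0.16) were higher, and Grk5 (−2.31 ± 0.24), Ric8a (−1.24 ± 0.18), Grk6 (−1.09 ± 0.17) and Arhgef1 (−0.75 ± 0.13) lower. Grk2 lost its call when TG libraries took the place of WT (adjusted p = 0.0579). In the list of small GTPases and partners near Rasd1, Nos1, the neuronal nitric oxide synthase found at the muscle membrane, was higher (log2 5.47 ± 0.18 SE). Nos1ap (−2.55 ± 0.36), Rasl12 (−2.48 ± 0.21), Acbd3 (−0.61 ± 0.09) and Rasl11b (−0.51 ± 0.16) were lower in muscle.

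Genes whose levels ran most like Rasd1 over the 12 libraries of pgWAT at 6 h were ranked by Pearson's r on log2(CPM + 1), among 10861 genes with a mean of at least 5 CPM. The 5 highest were Txnl1 (r = 0.98), a thioredoxin-like protein, Uba7 (0.98), an activating enzyme for a ubiquitin-like modifier, Cd274 (0.97), which encodes PD-L1, Irf1 (0.96), a transcription factor, and Bahcc1 (0.96). All 5 had lower means in TG, from 2.0 CPM in TG against 10.3 CPM in WT for Bahcc1 to 44.2 against 86.2 CPM for Irf1. The libraries share their genotype and the Rasd1 groups do not overlap, so these r values are a description only. For deviations from the genotype means r was 0.60 for Txnl1, 0.68 for Uba7, 0.41 for Cd274, 0.26 for Irf1 and 0.39 for Bahcc1.

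The genes beside Rasd1 on chromosome 11 differed less between genotypes. Within 250 kb of its start, 7 genes were tested in fat at 6 h, with log2 differences from −0.60 to 0.26. Rai1, a nuclear protein gene with its start at −140.1 kb, upstream, was lower (log2 −0.60 ± 0.12 SE, edgeR adjusted p = 0.00169), Med9, a Mediator subunit gene that starts 16.7 kb downstream and is transcribed towards Rasd1, was slightly higher (0.26 ± 0.08, adjusted p = 0.0425), and Pemt, Med9os, Cops3, Nt5m and Flcn did not pass. At 1 h the 5 neighbours tested had log2 differences from −0.27 to 0.05. In quadriceps, where Rasd1 itself was too low to test, Flcn, the folliculin gene, was lower (48.2 CPM in TG, 73.3 CPM in WT, log2 −0.61 ± 0.12 SE, adjusted p = 0.00215), as was the neighbouring transcript Gm16062 (log2 −0.97 ± 0.16 SE, adjusted p = 1.50e-04). Of the RGS members, 5 lie on chromosome 1 in this order: Rgs2 and Rgs1 238 kb apart, Rgs16 far from the other members, and Rgs5 and Rgs4 45.7 kb apart. RGS genes that are not members lie among them, Rgs13 between Rgs2 and Rgs1, and Rgs8 close to Rgs16. At 6 h Rgs2 and Rgs1 had log2 differences of 0.62 and 0.83, and Rgs5 and Rgs4 had 0.20 and −0.31. The Rgs1 value was −0.47 without TG replicate 1, so its sign rested on that library. Glul, the glutamine synthetase gene 159.6 kb downstream of the Rgs16 start, was higher in TG fat at 6 h (log2 0.74 ± 0.08 SE, adjusted p = 6.55e-06) and lower in TG quadriceps (−0.28 ± 0.08, adjusted p = 0.0458), while Rgs16 at 6 h had a log2 difference of −0.996.

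**Figure D5:**
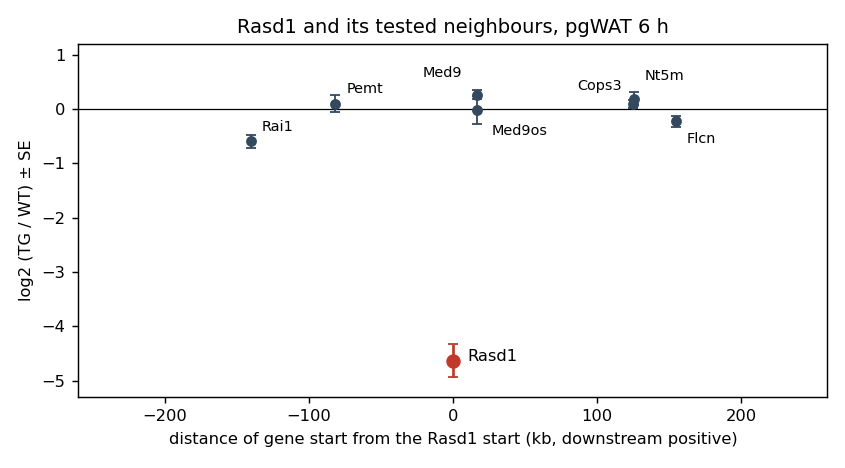
Log2 difference of TG over WT (points, bars are standard errors) in pgWAT at 6 h for Rasd1 and the 7 tested genes within 250 kb, against the distance of each gene start from the Rasd1 start in kb. Rasd1 lies at −4.63 and its neighbours between −0.60 and 0.26.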

How the data were processed

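Libraries of the QuantSeq FWD kind, which read the 3′ ends of transcripts, were deposited as tables of unnormalized whole-number counts for each gene. Per the labels' protocols, quadriceps and 1 h pgWAT libraries were made with a module that adds unique molecular identifiers, and 6 h libraries with the standard kit. STAR 2.7.10, cutadapt 1.18, UMI-tools 1.1.2 and bcl2fastq 2.20.0.422 and the builds GRCm39 and GRCm38 are named in the submitters' processing notes. The counting program, its strand setting, identifier collapse and the build of each table are not given in the sources used here. Rows that name no gene (5, 5 and 121 in quadriceps, 1 h and 6 h) held 25.0%, 34.8% and 0.214% of counts and were left out. Symbols came from the 6 h table, for 52338 of 55414 identifiers of the other tables, and positions from GENCODE vM21 on GRCm38.

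Samples were grouped by title. TG replicate 10 of quadriceps has a treatment entry naming 1 h, and its title (clamped) was followed. Each comparison was fitted on its own with edgeR 4.0.16 in R 4.3.3 (filterByExpr, TMM, robust quasi-likelihood fit, Benjamini-Hochberg adjustment over all genes, threshold 0.05), checked on simulated data. Alternatives were DESeq2 1.42.0, RLE scaling, no filter, a replicate block, leaving out each library and, chosen after seeing the data, leaving out libraries with summed liver or epididymis and testis markers over 200 CPM (and TG replicate 1 at 6 h, high in T, NK cell and macrophage markers). Members, the 6 lists and the 11 marker lists were chosen with earlier results of these data known. Named were all members, up to 4 genes per list, comparison and direction with the smallest p past the threshold, the 5 genes most like Rasd1, and, chosen after their values were seen, neighbours of Rasd1, Glul and the markers given. No 2 libraries agreed within sampling noise. Proteins and the genome sequence were not used here.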

Additional observations from a re-analysis of the deposited data

Results flagged for a closer look

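Of 53 groups of 6 to 10 libraries in which a member was measured, 10 held a library far from the rest of its group. For values with a normal spread, chance alone gives about 1 in 20, or 2.65 of 53. These CPM values need not have such a spread, and the same libraries recur across genes, so nothing is read from the excess. In quadriceps, Rasd2 was 57.2 CPM in TG replicate 9 (34.6 CPM in the next library), Rgs2 was 66.8 CPM in WT replicate 2 (next 38.5 CPM), and Rgs5 was 512 CPM in TG replicate 2, the lowest of its group (next 563 CPM). In pgWAT at 1 h, Rgs16 was 36.1 CPM in TG replicate 3 (next 2.65 CPM), Rgs1 was 39.0 CPM in WT replicate 6 (next 12.4 CPM), and Rgs14 was 14.6 CPM in TG replicate 9 (next 8.88 CPM). In pgWAT at 6 h, TG replicate 1 held the highest TG levels of both Rgs1, 18.98 CPM (next 3.01 CPM), and Rgs10, 25.1 CPM (next 14.6 CPM). At 6 h Rasd2 was 2.91 CPM in WT replicate 3 (next 1.16 CPM), and Rgs14 was 8.96 CPM in WT replicate 5 (next 6.03 CPM).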

How the results depend on the processing

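Rasd1 in pgWAT at 6 h kept its direction and stayed past the threshold in all 17 alternatives, with log2 differences from −4.89 to −4.28. As the members were chosen on this comparison, these refits describe dependence on processing only and are no test of the difference. Over the alternative values of members, 549 stayed within the spread between replicates or on their side of the threshold. Another 4 moved (Rasd2, Rgs16 and Rgs1 at 6 h, given beside their results, and Rgs1 at −0.57 without the 2 libraries in doubt). Only 1 changed sign with a call past the threshold: Rgs4 between muscle and fat, 0.01 in WT and −0.63 (edgeR adjusted p = 0.00459) with TG libraries in place of WT. The cause was not tested. Signs also changed without a call past the threshold. Besides Rgs1 at 6 h, examples without 1 library were Rgs1 at 1 h (up to 0.51), Rgs2 in quadriceps (up to 0.07), Rasd2 in quadriceps (down to −0.03) and Rgs14 at 6 h (up to 0.03). The count of genes past the threshold at 1 h, 8, was the least stable: 23 with DESeq2, 5 without a filter, 5 with the replicate block and 4 without the 8 libraries in doubt. Leaving out 1 library gave 3 to 12 (over 1.5 times away from 8 without TG replicate 1, 3, 5 or 7, or WT replicate 1, 2, 4, 5, 7 or 9), 119 to 189 in quadriceps (165 with all), 1666 to 2091 at 6 h (2071) and 8155 to 8413 between tissues (8342). Replicate numbers did not pair the samples: same-numbered libraries had correlations of deviations from −0.18 to 0.20 in quadriceps, −0.18 to 0.37 at 1 h, −0.09 to 0.11 at 6 h and −0.19 to 0.22 between tissues, and 1 of 10, 2 of 9, 2 of 6 and 1 of 9 pairs matched best. With the replicate block the counts were 143, 5, 1873 and 8206. Depth limits Rasd1 in muscle, where 3 counts are 1.01 to 3.26 CPM.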
